A study of Mus musculus with 8 samples.

Results

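The genes described here are 7 genes of the fetal growth programme that is switched off as mammalian tissues mature. They are the RNA-binding proteins Lin28a and Lin28b, the chromatin architectural proteins Hmga1 and Hmga2, and the mRNA-binding proteins Igf2bp1, Igf2bp2 and Igf2bp3. They were chosen by name, as 7 of the 28014 genes in the deposited count table, and all 7 were found there. Their RNA was followed across 10 cell types of the embryonic aorta region and across 2 genotypes of embryos.

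The study profiled single CD31+ cells from the aorta-gonad-mesonephros (AGM) region of mouse embryos at E10.5, where the first blood stem cells arise from arterial endothelium by endothelial-to-hematopoietic transition (EHT). The assay, CITE-seq, reads the RNA of a cell as unique molecular identifiers (UMIs) along with antibody tags on its surface. There were 5 WT libraries (WT 1 to 5, strain label C57BL/6) and 3 Mff_Cre libraries (Mff_Cre 1 to 3, strain label Meis1-flox/VE-Cre, genotype label Meis1-knockout), each from a pool of 2 to 5 embryos. In Mff_Cre embryos an exon of the homeobox gene Meis1 lies between loxP sites, and Cre is driven by the promoter of VE-cadherin, a gene of endothelium, so that cells of endothelial descent are the ones expected to recombine. The Cre stock is named as mixed B6;129, and the study also uses WT for littermates without Cre, so allele content of each WT pool beyond its label is not given in the sources used here.

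As background, LIN28 proteins bind precursors of the let-7 microRNAs and block their maturation. Mature let-7 in turn represses a set of mRNAs that includes Hmga2, the Igf2bp genes and Lin28b itself, so LIN28 and its targets tend to be high together in embryonic cells and low in adult cells. In fetal blood stem cells Lin28b and Hmga2 are known for high self-renewal, and IGF2BP proteins stabilise mRNAs that include Igf2 and Myc. Mature let-7 is too short to be counted by this assay, and no let-7 level is given here.

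The let-7 sequences are shown because the seed, bases 2 to 8 of the mature strand, is what the members' mRNAs are recognised by. The capitals mark the seed, and the coordinates are those of RefSeq for GRCm38.p6.
let-7a-5p, Mirlet7a-1, chr13:48538239-48538260, minus strand: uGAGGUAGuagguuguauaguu
let-7d-5p, Mirlet7d, chr13:48536078-48536099, minus strand: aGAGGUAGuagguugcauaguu
let-7e-5p, Mirlet7e, chr17:17830366-17830387, plus strand: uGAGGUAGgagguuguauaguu
let-7g-5p, Mirlet7g, chr9:106178846-106178867, plus strand: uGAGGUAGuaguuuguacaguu
The 4 share the seed and differ in the bases behind it. In the RefSeq table, 11 of 1674 distinct mature mouse sequences carried this seed, from 13 hairpins.

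LIN28 proteins are known to contact a GGAG motif in the loop of let-7 precursors, so the part of the hairpin that ends the loop and opens the 3′ arm is shown next, with GGAG in capitals.
Mirlet7a-1, chr13:48538179-48538272, minus strand: cacccaccacugGGAGauaacuau
Mirlet7d, chr13:48536012-48536114, minus strand: uuuugcccacaaGGAGuuaacuau
Mirlet7g, chr9:106178840-106178927, plus strand: ccacccgguacaGGAGauaacugu
The coordinates are those of the whole hairpin. GGAG, read on the RNA strand only, lay between the mature arms, or behind a single annotated arm, in 9 of the 13 hairpins with the seed. Over all 644 mouse hairpins with both arms annotated, 52 (8.07%) held it there, among them 8 of the 11 with this seed. A match is a description of letters and not a binding site.

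All 7 members are protein-coding genes in the RefSeq annotation of GRCm38.p6, the assembly also called mm10. Lin28a lies at chr4:134003330-134019196 and Lin28b at chr10:45376617-45486314. Hmga1 lies at chr17:27556574-27563672 and Hmga2 at chr10:120361268-120476469. The mRNA-binding proteins are at chr11:95957163-96005944 for Igf2bp1, chr16:22059009-22163299 for Igf2bp2 and chr6:49085218-49215469 for Igf2bp3.

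The table held 15168 cells, with 20484881 to 79429129 UMIs per library. Median UMIs per cell were between 26572 and 28553 in WT 1 to 4, while the WT 5 median was 12720.5 and the Mff_Cre medians were 9611.5 to 14895. Among WT libraries, WT 5 alone was sequenced as shallowly as Mff_Cre, its cell names carry a prefix (Mf) that the labels do not explain, and the genotype changes below are also given against WT 5 alone, as values with no test, since that leaves 1 WT library. As each library is a pool, p-values measure the spread between pools. Between libraries, 33 cell barcodes were shared. Cell types are those deposited by the authors, who clustered the same RNA counts after integrating the libraries, and whether the members were among the genes used for clustering was not tested. Among marker genes, the EHT regulator Runx1 was at a mean of 191 UMIs per 1000000 UMIs of the cell type (CPM) in EHT and 7.06 CPM in pre-HE cells, and the platelet gene Pf4 at 24252 CPM in megakaryocytes. In aEC, named as arterial endothelium, the summed level of 4 arterial markers was 84.5 to 132 CPM per WT library against 935 to 1274 CPM in pre-HE, and Gja5 was at 2.17 CPM.

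Deletion of one exon is not read by 3′ tags, so Meis1 counts do not check the genotype directly. Meis1 was at 68.0 to 85.8 CPM in the EHT cells of the WT libraries and at 55.5 to 70.9 CPM in those of Mff_Cre. In erythro-myeloid progenitors (EMP) it was at 56.7 to 77.0 CPM in WT and at 20.9 to 36.4 CPM in Mff_Cre. The ranges overlapped in EHT and did not overlap in EMP. In aEC Meis1 was near 0, at a mean of 1.18 CPM in WT and 1.79 CPM in Mff_Cre, and in pre-HE the ranges of 12.9 to 51.4 CPM and 9.57 to 53.0 CPM overlapped.

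Hmga2, an AT-hook protein that bends DNA and opens chromatin, was highest in EHT cells and lowest in megakaryocytes. In WT 1 to 5 its level in EHT was 814, 804, 624, 600 and 801 CPM, a mean of 729 ± 107 (SD, n = 5). In pre-HE, the population placed between endothelium and EHT, the values were 468, 476, 311, 344 and 502 CPM. The pre-HE sums were small, with 39, 18, 11, 87 and 16 cells in WT 1 to 5. Every library was higher in EHT than in pre-HE, and the ranges of these 2 cell types did not overlap. The 4 further endothelial clusters (vEC_1 to vEC_4) and aEC followed at means between 262 and 316 CPM, neighbours whose ranges overlapped. EMP cells stood at 251 ± 29.8 CPM (SD, n = 5), with 231, 214, 285, 248 and 275 CPM in WT 1 to 5. Myeloid cells were lower, at 67.5, 49.2, 88.1 and 70.1 CPM in WT 1 to 4, while WT 5 stood apart from them at 214 CPM. Megakaryocytes were at 30.5, 33.3, 88.6 and 129 CPM in WT 1, 2, 4 and 5, where WT 3 had too few cells for a sum. In sums over cells, fewer cells with the RNA and less RNA per cell cannot be told apart.

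Igf2bp2, which binds and stabilises growth-related mRNAs, followed the same order at its ends. In EHT it was at 140, 113, 133, 124 and 110 CPM in WT 1 to 5, a mean of 124 ± 12.7 (SD, n = 5). In pre-HE the values were 109, 126, 110, 90.1 and 70.8 CPM, which overlapped those of EHT. EMP lay below all of these, with 59.1, 50.1, 49.9, 47.5 and 33.7 CPM, and the ranges of aEC and EMP did not overlap. Myeloid cells were at 37.1 ± 5.75 CPM (SD, n = 5) and megakaryocytes at 20.9 ± 8.85 CPM (SD, n = 4), again with no overlap between these neighbours.

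Igf2bp1 and Igf2bp3, paralogs that also bind mRNA, had flatter patterns. Igf2bp1 was highest in vEC_3 at 180 ± 8.69 CPM (SD, n = 5), was at 148 ± 15.3 CPM in EHT and at 110 ± 13.3 CPM in EMP, and stood apart only in megakaryocytes at 50.9 ± 10.7 CPM (SD, n = 4), below all aEC values. Igf2bp3 was highest in Myeloid cells at 103 ± 13.4 CPM and lowest in aEC at 55.6 ± 7.06 CPM, and no neighbours in its order were free of overlap.

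Lin28b, the LIN28 paralog that keeps let-7 low in fetal blood cells, was highest in EHT at 47.7, 38.8, 40.1, 37.5 and 33.1 CPM in WT 1 to 5. EMP cells were close, at 34.0, 29.6, 45.0, 36.9 and 39.7 CPM, and only 3 of 5 libraries were higher in EHT. In pre-HE, Lin28b was at 9.21, 0, 6.48, 12.7 and 25.7 CPM, which rests on 26 UMIs in all, so that the order of pre-HE among the lowest cell types is not resolved at this depth. Where WT 2 had 0 UMIs, up to 3 could have been missed. Its other levels ran from 14.5 CPM in vEC_4 to 33.1 CPM in Myeloid cells, each neighbour overlapping the next. Lin28a, the paralog of early embryonic cells, was scarce in every cell type, at most 8.85 ± 3.29 CPM in vEC_2, and in EHT it was at 2.33 ± 1.64 CPM with 22 UMIs in all.

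**Figure D1:**
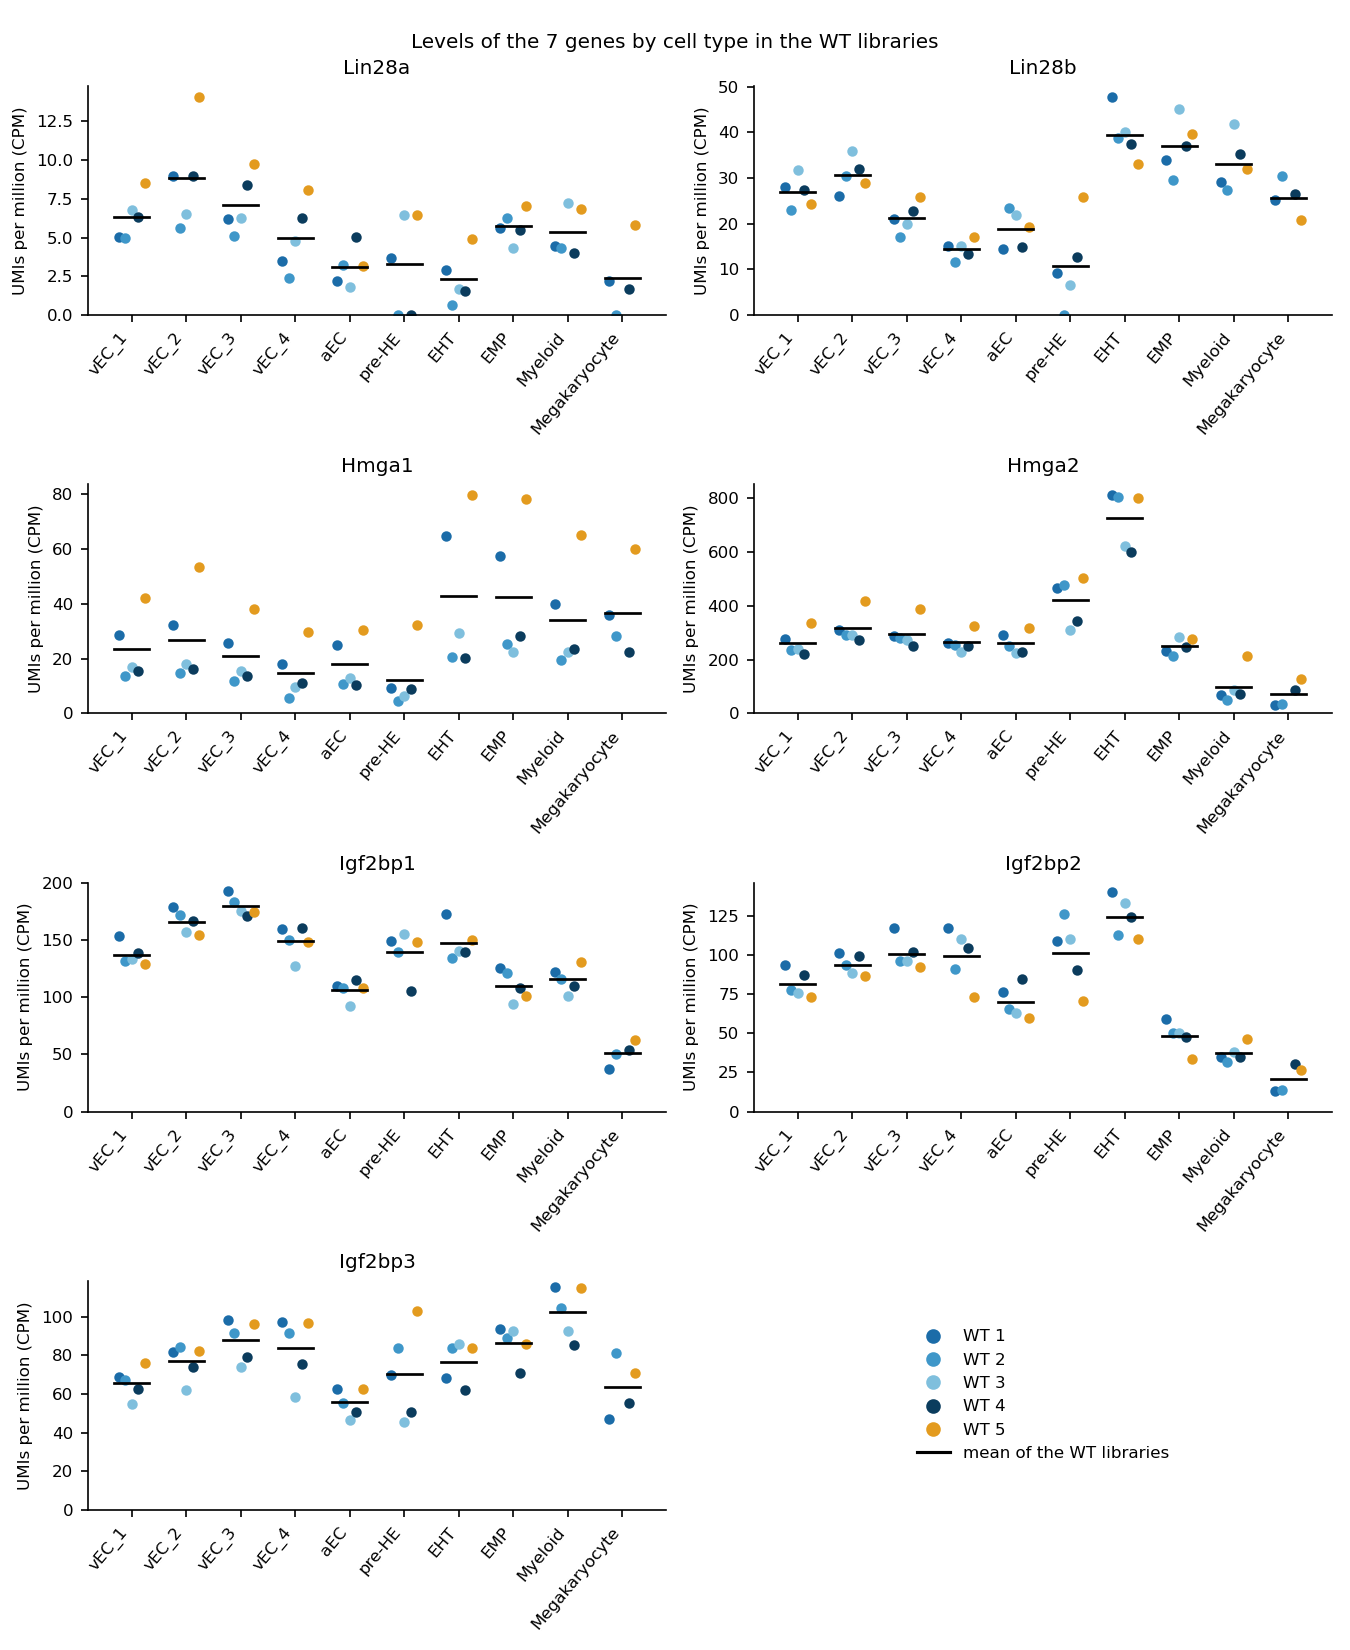
Level of each gene (y axis, CPM of the summed cells) in the 10 cell types (x axis) of the WT libraries, 1 point per library, with a line at the mean. Hmga2 in EHT lies above every other cell type, Igf2bp2 is lower in EMP than in EHT, and Hmga1 separates WT 1 and WT 5 from WT 2, 3 and 4 in most cell types.

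Hmga1, the other AT-hook protein, differed between libraries as well as between cell types. Its WT means ran from 12.3 CPM in pre-HE to 42.9 CPM in EHT. In EHT the WT libraries had 64.6, 20.7, 29.3, 20.3 and 79.8 CPM, in the order WT 1 to 5, and the Mff_Cre libraries 53.2, 37.5 and 83.2 CPM. Over all cells the level was 16.4, 17.9 and 16.4 CPM in WT 2, 3 and 4, against 34.3 CPM in WT 1, 52.3 CPM in WT 5 and 33.2 to 70.7 CPM in Mff_Cre. WT 2, 3 and 4 were thus the lowest of the 8 libraries. How reads that match more than 1 place were counted is not given in the sources used here, and its part in the values of Hmga1 was not tested.

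**Figure D2:**
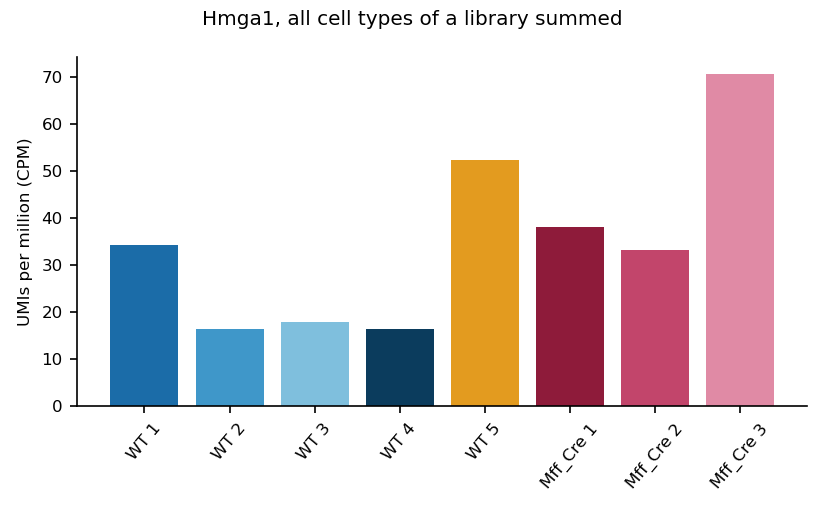
Level of Hmga1 (y axis, CPM) in each of the 8 libraries (x axis), all its cell types summed, as bars that start at 0, with colour marking the library. WT 2, 3 and 4 are lowest, at 16.4 to 17.9 CPM, and Mff_Cre 3 is highest at 70.7 CPM.

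The first question the cell types allow is how the members differed between cell types, from arterial endothelium to EHT and blood. The study holds that EMP and the mature blood cells likely come from the yolk sac. Comparisons with these cells are thus between populations, and a rise or fall there is not a step in time. From aEC to pre-HE in the WT libraries, 3 of 6 members tested passed the threshold of an adjusted p under 0.1, where 42.1% of 8143 genes did (21.1% higher and 21.1% lower). Hmga2 rose by a log2 fold change of 0.58 (SE 0.10, adjusted p = 5.47e-06, quasi-likelihood F test of edgeR, Benjamini-Hochberg adjusted over all genes), and in all 5 libraries. Igf2bp2 rose by 0.35 (edgeR adjusted p = 0.0631) and Hmga1 fell by 0.70 (edgeR adjusted p = 0.0885). Both of these calls were lost in DESeq2, where Hmga2 alone was left, and both were lost without WT 1, without WT 2 or without WT 3 (edgeR adjusted p up to 0.527 for Hmga1 and 0.275 for Igf2bp2). The log2 change of Lin28b was -0.66 (SE 0.33, edgeR adjusted p = 0.119). It passed without WT 4 (-1.05, edgeR adjusted p = 0.0899) and without WT 5 (-0.82, 0.0575), and Igf2bp1, at 0.19 with all libraries, passed without WT 4 (0.37, 0.0672). Igf2bp3 was at 0.14 (SE 0.16) and not called, and Lin28a did not pass the filter on low counts.

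From pre-HE to EHT, 4 of 6 members rose and none fell, where 61.6% of 8467 genes passed, 31.6% higher and 30% lower. The largest log2 fold changes were those of Lin28b, 1.87 (SE 0.31, edgeR adjusted p = 5.09e-06), and Hmga1, 1.85 (SE 0.30, edgeR adjusted p = 3.13e-06). Both sizes rest on few counts in pre-HE, 26 UMIs of Lin28b and 23 of Hmga1 over all WT libraries. Hmga2 rose by 0.84 (SE 0.09, edgeR adjusted p = 2.76e-09), a 1.79-fold change, in 5 of 5 libraries. Igf2bp2 rose by 0.35 (SE 0.14, edgeR adjusted p = 0.0314), and its call was lost without WT 1 (edgeR adjusted p = 0.114) or WT 4 (0.136). Igf2bp1 and Igf2bp3 had log2 fold changes of 0.19 and 0.16 and were not called. As a share of genes tested, 16.8% rose at least as far as Hmga2, and 3.74% as far as Lin28b.

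From EHT to EMP, blood progenitors that are thought to come mostly from the yolk sac, the members parted. Of 7 tested, 3 fell and 2 rose, where 56.4% of 9252 genes passed, 28.8% lower and 27.6% higher. Hmga2 fell by 1.44 on the log2 scale (SE 0.09, edgeR adjusted p = 8.32e-09) and Igf2bp2 by 1.27 (SE 0.08, edgeR adjusted p = 1.40e-08), each in all 5 libraries. Igf2bp1 fell by 0.32 (edgeR adjusted p = 0.00143). Igf2bp3 rose by 0.28 (edgeR adjusted p = 0.00883) and Lin28a by 1.41 (SE 0.34, edgeR adjusted p = 0.00296), the latter from 22 UMIs in EHT and 103 in EMP. Lin28b, at -0.01 (SE 0.12) on the log2 scale, and Hmga1, with 0.13 (SE 0.12), were not called. Whether genes differed from each other in this step was not tested.

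Against EMP, the 2 differentiated cell types were lower for Hmga2. In Myeloid cells against EMP, 4 of 7 members passed, where 61.1% of 10267 genes did (32.1% higher and 29% lower). Hmga2 fell by 1.51 (SE 0.20, edgeR adjusted p = 7.54e-05), Igf2bp2 by 0.36 (edgeR adjusted p = 0.0511) and Hmga1 by 0.29 (edgeR adjusted p = 0.0140), and Igf2bp3 rose by 0.29 (edgeR adjusted p = 0.00272). The Igf2bp2 call was lost without WT 1, WT 2 or WT 4 (edgeR adjusted p 0.105 to 0.192). Lin28a, Lin28b and Igf2bp1, at -0.19, -0.12 and 0.11, were not called. In megakaryocytes against EMP, 5 of 7 members fell, where 58.9% of 9370 genes passed and 29.5% fell. Hmga2 fell by 1.82 (SE 0.24, edgeR adjusted p = 2.57e-04), Igf2bp1 by 1.05 (SE 0.14, edgeR adjusted p = 2.36e-04) and Igf2bp2 by 1.03 (SE 0.25, edgeR adjusted p = 0.00769). The falls of Lin28a, 1.20, and Igf2bp3, 0.33, each lost their call when any of 3 single libraries was left out and in DESeq2. Lin28b, at -0.39 (SE 0.19), and Hmga1, at -0.24 (SE 0.15), were not called.

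Between endothelial cell types, aEC was lower than the vEC clusters summed for all 7 members, where 59.7% of 11345 genes passed and 30.5% were lower. Igf2bp1 fell by 0.54 (SE 0.05, edgeR adjusted p = 3.40e-09), Igf2bp3 by 0.46 (SE 0.06), Igf2bp2 by 0.36 (SE 0.06), Lin28b by 0.44 (SE 0.11), Hmga1 by 0.32 (SE 0.10) and Lin28a by 0.97 (SE 0.20) on the log2 scale. The change of Hmga2 was small, -0.10 (SE 0.05, edgeR adjusted p = 0.0683), and its call was lost in DESeq2 and without WT 2, 3, 4 or 5.

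**Figure D3:**
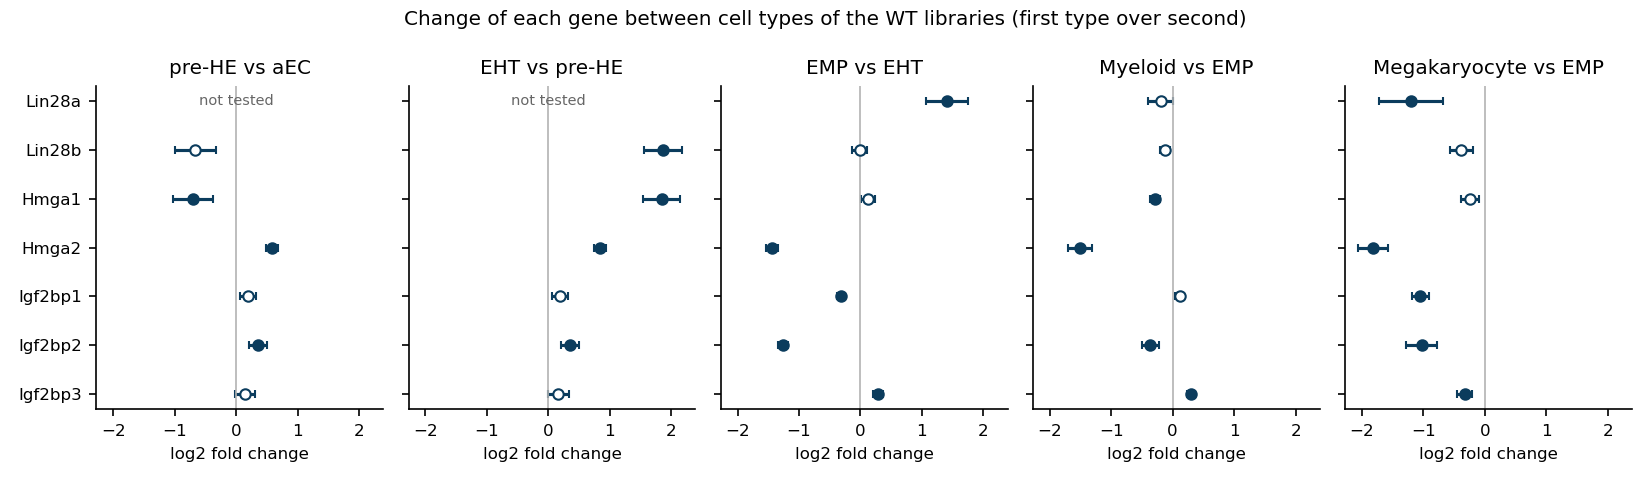
Log2 fold change of each gene (x axis; rows are genes) between pairs of cell types in the WT libraries, the first type over the second, with bars of 1 SE; filled points passed the adjusted p under 0.1 by edgeR and open points did not. Hmga2 and Igf2bp2 lie right of 0 up to EHT and left of 0 in the comparisons that involve EMP. Lin28b and Hmga1 are at 1.87 and 1.85 from pre-HE to EHT and lie near 0 from EHT to EMP.

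The genes around these members gave a different picture at each step, in 4 lists of related genes. Of 13 genes for let-7 processing, 12 were tested from aEC to pre-HE and 3 rose, none fell, with a list median log2 fold change of 0.30 against 0.01 over all genes. They were the terminal uridylyltransferases Zcchc11, 0.62 (SE 0.13), and Zcchc6, 0.62 (SE 0.16), which tail let-7 precursors held by LIN28 or unbound, and the RNase Dicer1, 0.48 (SE 0.16). From pre-HE to EHT, 2 of 13 rose and 3 fell (median 0.05 against 0.04 over all genes), with the exporter Xpo5 at 1.60, and Zcchc6 and Zcchc11 falling by 0.78 and 0.58. From EHT to EMP, 1 rose and 7 fell (median -0.36 against -0.01), and the let-7 target and ubiquitin ligase Trim71 fell by 0.88, Prkra by 0.86 and Zcchc11 by 0.68.

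Of 13 further genes known as let-7 targets, 3 rose and 4 fell of 11 tested at the aEC to pre-HE step (median 0.27). The transcription factor gene Mycn fell by 3.21 (SE 0.37) and the cyclin gene Ccnd1 by 1.89, while Ccnd2 rose by 2.03 and Myc by 1.36. From pre-HE to EHT, 5 rose and 2 fell of 12 (median 0.14), with Mycn at 5.23 (SE 0.30), the kinase gene Cdk6 at 2.41, Myc at 1.56 and Ccnd2 at 1.25. From EHT to EMP, 5 rose and 6 fell of 12 (median -0.14), and Mycn fell by 4.06, the polycomb gene Cbx2 by 2.51, Ccnd1 by 1.89 and Ccnd2 by 1.77. Of these, Mycn and Ccnd2 rose into EHT and fell from EHT to EMP.

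The insulin-like growth factor (IGF) list, ligands, receptors and binding proteins whose mRNAs include IGF2BP substrates, moved most. From aEC to pre-HE, 8 rose and 2 fell of 10 (median 0.75), with the ligand Igf2 at 1.49 (SE 0.09), the binding proteins Igfbp2 at 1.67 and Igfbp3 at 1.60, and Igfbp7 falling by 2.05. From pre-HE to EHT none rose and 9 of 11 fell (median -2.05), among them Igfbp3 by 5.72, Igfbp2 by 3.35, Igfbp7 by 2.70 and the non-coding RNA H19 by 2.54. From EHT to EMP, 1 rose and 8 fell of 10 (median -3.60), with Igf2 falling by 4.42 (SE 0.12) and Igfbp5 by 6.76. Partner proteins of IGF2BP went the other way at the EHT step, where 7 of 7 rose (median 0.56), among them the poly(A)-binding protein gene Pabpc1 by 1.32, Syncrip by 0.72, Ybx1 by 0.61 and Hnrnpu by 0.56. From aEC to pre-HE, 3 of these 7 had fallen and none rose, and from EHT to EMP 3 rose and none fell.

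The lists in the remaining cell types were mixed. From EMP to Myeloid cells, 2 processing genes rose and 4 fell of 13, 6 targets rose and 5 fell of 12, 4 IGF genes rose and 2 fell of 8, and 5 of 7 partners fell. In megakaryocytes against EMP these counts were 3 and 5 of 13, 6 and 4 of 11, 7 and 1 of 11, and 0 and 6 of 7. In aEC against vEC they were 2 and 8 of 13, 3 and 8 of 13, 8 and 2 of 11, and 0 and 7 of 7. In Myeloid cells the growth factor Igf1 rose by 3.08 and the receptor gene Igf1r fell by 1.32 (both called by edgeR, adjusted p = 1.91e-05 and 7.58e-06).

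Genotypes were then compared within cell types, 5 WT libraries against 3 Mff_Cre libraries, which asks whether the members differ where Meis1 was deleted in endothelium. In EMP 2 members, Hmga2 and Igf2bp2, differed. In EMP cells of Mff_Cre 1 to 3, Hmga2 was at 94.0, 169 and 63.7 CPM, all below the 214 to 285 CPM of the WT libraries. Igf2bp2 was at 17.5, 24.9 and 17.7 CPM, all below the 33.7 to 59.1 CPM of WT. The groups did not overlap for either gene, and WT 5, the library of like depth, lay within the WT range for Hmga2 at 275 CPM and was the lowest WT library for Igf2bp2. How many of all genes had levels apart between genotypes was not counted, in EMP or in other cell types.

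Across genes, 2 of 7 members were called in EMP, where 4.74% of 9172 genes were, 2.06% lower and 2.68% higher. Igf2bp2 fell by 1.21 on the log2 scale (SE 0.18, edgeR adjusted p = 0.00904), to 0.433 of the WT level, and Hmga2 by 1.16 (SE 0.24, edgeR adjusted p = 0.0358), to 0.448. As a share of genes tested, 0.850% fell at least as far as Hmga2. Both were called in DESeq2 as well. With the depth class of the library as a covariate, the changes were -1.33 for Hmga2 (edgeR adjusted p = 0.302) and -0.73 for Igf2bp2 (0.482), where 7 of 9172 genes were called. Against WT 5 alone the changes were -1.32 and -0.73. Without Mff_Cre 1, Hmga2 was not called (-1.06, edgeR adjusted p = 0.168).

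Other markers moved with genotype in EMP. Cells with a UMI of Gata1, the erythroid and megakaryocyte regulator, or of Cpa3, a mast cell protease, made up 23.7% to 36.9% of EMP cells in WT and 46.3% to 53.0% in Mff_Cre. The summed level of 7 erythroid genes was 5.81 to 193 CPM in WT EMP and 288 to 1862 CPM in Mff_Cre, and no gene of the list was at 0. The 4 EMP genes together were at 276 to 336 CPM and 425 to 513 CPM, and the 4 myeloid genes at 589 to 820 CPM and 1070 to 1194 CPM. In cells thinned to 5000 UMIs, the Hmga2 ranges of the genotypes did not overlap either among cells with Gata1 or Cpa3, at means of 2.20 ± 0.45 (SD, n = 5) against 0.94 ± 0.38 UMIs per 10000 (SD, n = 3), or among cells without, at 2.74 ± 0.37 against 1.11 ± 0.42. For Igf2bp2 in cells with Gata1 or Cpa3 the values were 0.34 ± 0.15 (SD, n = 5) and 0.12 ± 0.11 UMIs per 10000 (SD, n = 3). Their ranges of 0.222 to 0.519 and 0 to 0.206 did not overlap, from 9 to 68 such cells per library. For Igf2bp2 in cells without these UMIs the values were 0.57 ± 0.27 and 0.28 ± 0.07 UMIs per 10000, and the ranges of 0.257 to 0.977 and 0.203 to 0.333 overlapped. The part of these cells in the genotype difference of the whole EMP cluster was not tested otherwise. Higher marker sums in Mff_Cre were not particular to EMP. The erythroid sum in megakaryocytes was 333 to 6818 CPM in WT and 8377 to 37305 CPM in Mff_Cre. The myeloid sum in EHT was 219 to 296 CPM and 354 to 418 CPM. The erythroid ranges overlapped in EHT, and the myeloid ranges overlapped in megakaryocytes.

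In Myeloid cells, 1 of 7 members was called, where 3.26% of 11479 genes were (1.78% lower and 1.48% higher). Igf2bp2 was at 12.2, 17.3 and 21.9 CPM in Mff_Cre against 34.9, 31.4, 37.9, 34.6 and 46.5 CPM in WT 1 to 5, with no overlap. The log2 fold change was -1.03 (SE 0.20, edgeR adjusted p = 0.0317), and against WT 5 alone it was -1.35. The call was lost without Mff_Cre 1 (-0.84, edgeR adjusted p = 0.157), without Mff_Cre 2 (-1.01, 0.129) and with the depth class as a covariate (-1.37, 0.1001). Hmga2 in Myeloid cells turned on 1 library. Mff_Cre was at 36.3, 70.1 and 50.7 CPM, which overlapped WT 1 to 4 but lay far below the 214 CPM of WT 5, and the change of -0.84 (SE 0.44, edgeR adjusted p = 0.390) became -1.95 against WT 5 alone and -0.29 without WT 5. With the depth class as a covariate, which sets Mff_Cre against WT 5, the 1 member called was Hmga2 in place of Igf2bp2 (-1.98, edgeR adjusted p = 0.0669).

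**Figure D4:**
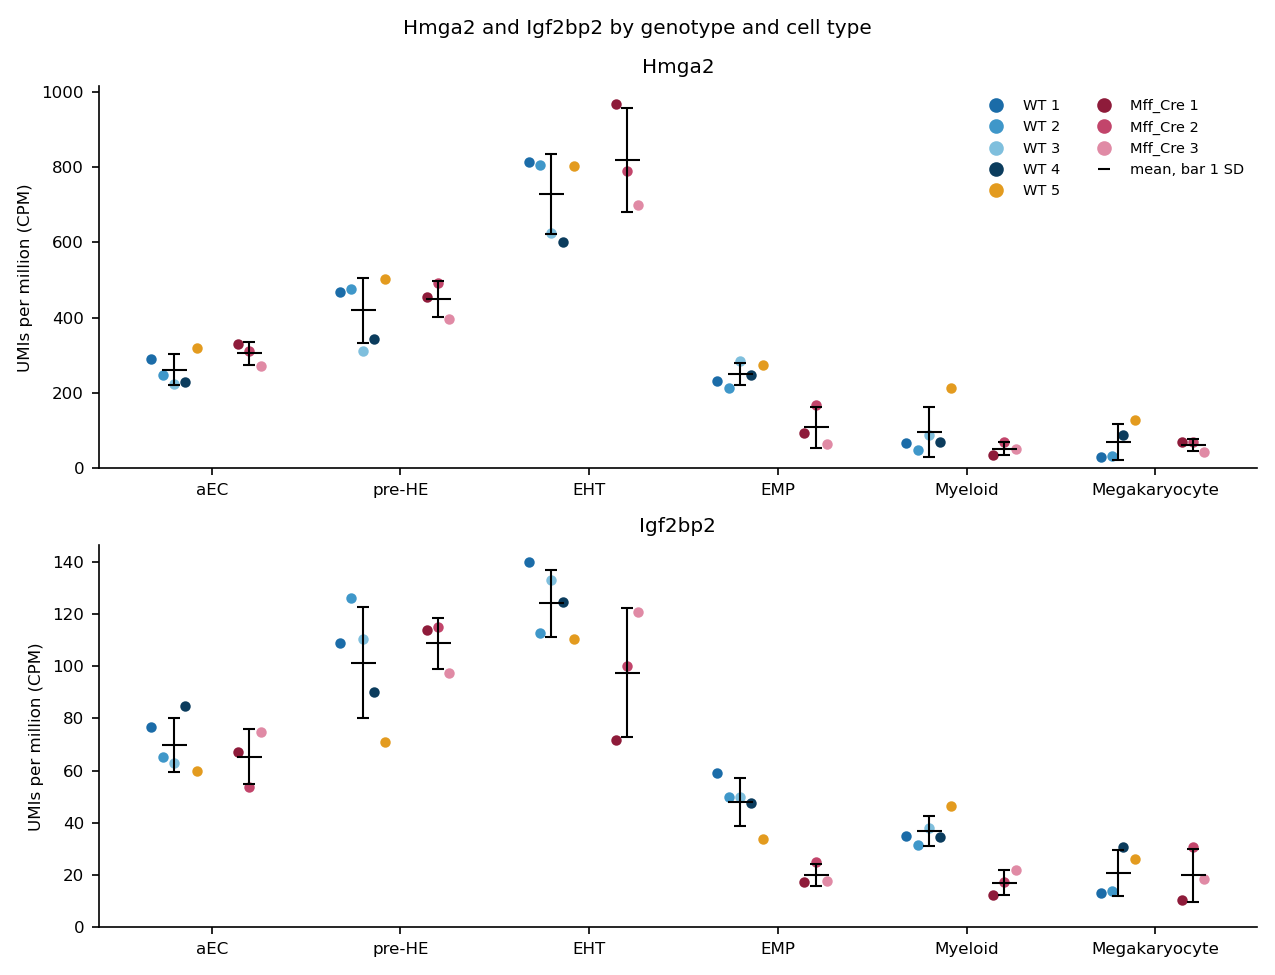
Levels of Hmga2 (top) and Igf2bp2 (bottom) in CPM (y axis) by cell type (x axis), WT at the left and Mff_Cre at the right of each pair, 1 point per library with the mean and a bar of 1 SD. In EMP all Mff_Cre points lie below all WT points for both genes, in EHT the genotypes overlap, and in Myeloid cells WT 5 stands above the other libraries for Hmga2.

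In the other cell types no member was called by edgeR or by DESeq2. In EHT, where 0.127% of 8670 genes were called, Hmga2 was at 968, 790 and 698 CPM in Mff_Cre, which overlapped WT, and the log2 change was 0.20 (SE 0.14, edgeR adjusted p = 0.690). Igf2bp2 in EHT was at 71.6, 100 and 121 CPM, with a log2 fold change of -0.33 (SE 0.16, edgeR adjusted p = 0.552). The 6 members tested there had changes between -0.40 and 0.49, and 0 had an unadjusted p under 0.05. The percentage of genes called was 0 in aEC (0 of 9540 by edgeR, 11 by DESeq2, and 1000 at an unadjusted p under 0.05), 0.489 in pre-HE, 0.0164 in vEC and 0.206 in megakaryocytes. By DESeq2, 9 genes were called in pre-HE, 43 in EHT, 264 in vEC and 86 in megakaryocytes, and without WT 5 edgeR called 1647 genes in vEC against 2 with it. At an unadjusted p under 0.05 there were 2 of 7 members in aEC, 0 of 4 in pre-HE, 3 of 7 in vEC and 0 of 6 in megakaryocytes. Hmga1 had log2 fold changes of 0.91 in vEC, 0.79 in EMP and 0.78 in Myeloid cells, not called. Without WT 5 it was called in each (1.28, 1.15 and 1.15; edgeR adjusted p = 0.0199, 0.0595 and 0.0308), and against WT 5 alone the changes were -0.067, -0.14 and -0.13. Without WT 5, Igf2bp3 was also called in aEC (0.45, edgeR adjusted p = 0.0832), as were Hmga2 (0.38, 0.0275), Lin28a (0.75, 0.0434) and Igf2bp3 (0.33, 0.0697) in vEC. Lin28b had changes between -0.40 and -0.13 in the 6 cell types where it was tested and was called in none. Ranges can lie apart without a call. Lin28b in Myeloid cells was at 27.3 to 41.8 CPM in WT and 21.9 to 26.4 CPM in Mff_Cre. Lin28a in aEC was at 1.83 to 5.03 CPM and 5.17 to 8.83 CPM, and Igf2bp3 in vEC_1 at 54.7 to 76.0 CPM and 76.1 to 94.2 CPM.

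Whether the genotype difference itself differed between cell types was tested by a genotype by cell type term with the library as a block, added after the data had been seen. Between EMP and EHT, 2 of 7 members were called, both lower, where 0.402% of 9961 genes were called and 0.12% were lower. For Hmga2 the genotype change was lower in EMP than in EHT by 1.42 on the log2 scale (-1.42, SE 0.21, edgeR adjusted p = 0.00247). It was called without each of the 8 libraries in turn, at -1.85 to -1.21, but not with the depth class as a covariate (-1.40, edgeR adjusted p = 0.191), and against WT 5 alone it was at -1.40. For Igf2bp2 the term was -0.90 (edgeR adjusted p = 0.0785), and the call was lost without WT 1, 2 or 4 and without each of the Mff_Cre libraries. With the depth class it was -0.55 (edgeR adjusted p = 0.928), and against WT 5 alone also -0.55. Between Myeloid cells and EHT, 0 of 7 members were called, where 0.252% of 10330 genes were (0.155% lower), and 647 genes had an unadjusted p under 0.05. Against WT 5 alone, the WT library highest for Hmga2 in Myeloid cells, Hmga2 there was at -1.97 and Igf2bp2 at -1.14.

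The lists of related genes had few calls between genotypes. In EMP, the exporter Xpo5 fell by 0.88 (SE 0.23, edgeR adjusted p = 0.0738) and Zcchc11 by 0.57 (SE 0.17, edgeR adjusted p = 0.0993) of 13 processing genes, Ccnd2 fell by 0.73 (edgeR adjusted p = 0.0993) of 12 targets, Igfbp4 rose by 0.66 (edgeR adjusted p = 0.0348) of 7 IGF genes, and none of 7 partners was called. In Myeloid cells, Zcchc11 fell by 0.75 (SE 0.14, edgeR adjusted p = 0.0319), Ccnd2 by 1.26 (edgeR adjusted p = 0.0223) and the receptor gene Tgfbr1 by 0.99 (edgeR adjusted p = 0.0932), the first of 13 processing genes and the others of 13 targets. The list medians lay between -0.19 and 0.35 in EMP and between -0.04 and 0.07 in Myeloid cells, against -0.003 and -0.007 over all genes. In aEC, pre-HE, EHT, vEC and megakaryocytes none of the 4 lists had a call by edgeR.

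Per cell, the share with at least 1 UMI was compared after each cell was thinned to 5000 UMIs. In EMP, Hmga2 was seen in 59.4% ± 6.23 of cells in WT (SD, n = 5, range 49.4% to 64.9%) and in 29.5% ± 8.58 in Mff_Cre (SD, n = 3, range 21.8% to 38.8%). Igf2bp2 in EMP was seen in 16.2% to 28.8% of cells in WT and in 6.00% to 10.9% in Mff_Cre, and in Myeloid cells in 16.2% ± 2.98 and 7.97% ± 1.94, with ranges that did not overlap. Without thinning, Hmga2 in EMP was seen in 89.1% ± 5.51 and 50.8% ± 8.27, Igf2bp2 in EMP in 78.4% ± 15.8 and 25.8% ± 1.81, and Igf2bp2 in Myeloid cells in 63.0% ± 8.71 and 23.5% ± 4.79. Each of these 3 differences at equal depth had the smallest two-sided exact permutation p that 56 regroupings of 5 and 3 libraries allow, 0.0179. Over the 35 comparisons of 7 members in 5 cell types the smallest adjusted p was 0.208, so none passed 0.1. In 4 of the 35 the ranges did not overlap, the fourth being Hmga2 in aEC, where Mff_Cre was higher at 75.5% to 81.1% against 60.0% to 73.4%. The same count was not made over all genes, so these 4 cannot be set against a background.

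For the other members, shares and levels did not always move the same way between genotypes. In EMP the Lin28b share was 12.3% in WT and 14.2% in Mff_Cre, while its mean level was 37.0 and 31.6 CPM. In EHT, Hmga2 was seen in 89.6% to 100% of cells in WT and 82.5% to 98.6% in Mff_Cre. Lin28b was seen in 17.4% ± 4.85 of WT EHT cells and 6.44% ± 5.07 of WT pre-HE cells (SD, n = 5). As no cell type is known to lack Hmga2, no background share can be given. The lowest WT mean for Hmga2 was 14.9% in megakaryocytes, and in Mff_Cre it was 12.3% in Myeloid cells. The WT megakaryocytes and EMP were at median depths before thinning of 24314.5 UMIs and 46035.5 UMIs. Lin28a was seen in at most 4.44% of WT cells of a type, in vEC_2, and at least 0.735% in megakaryocytes.

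**Figure D5:**
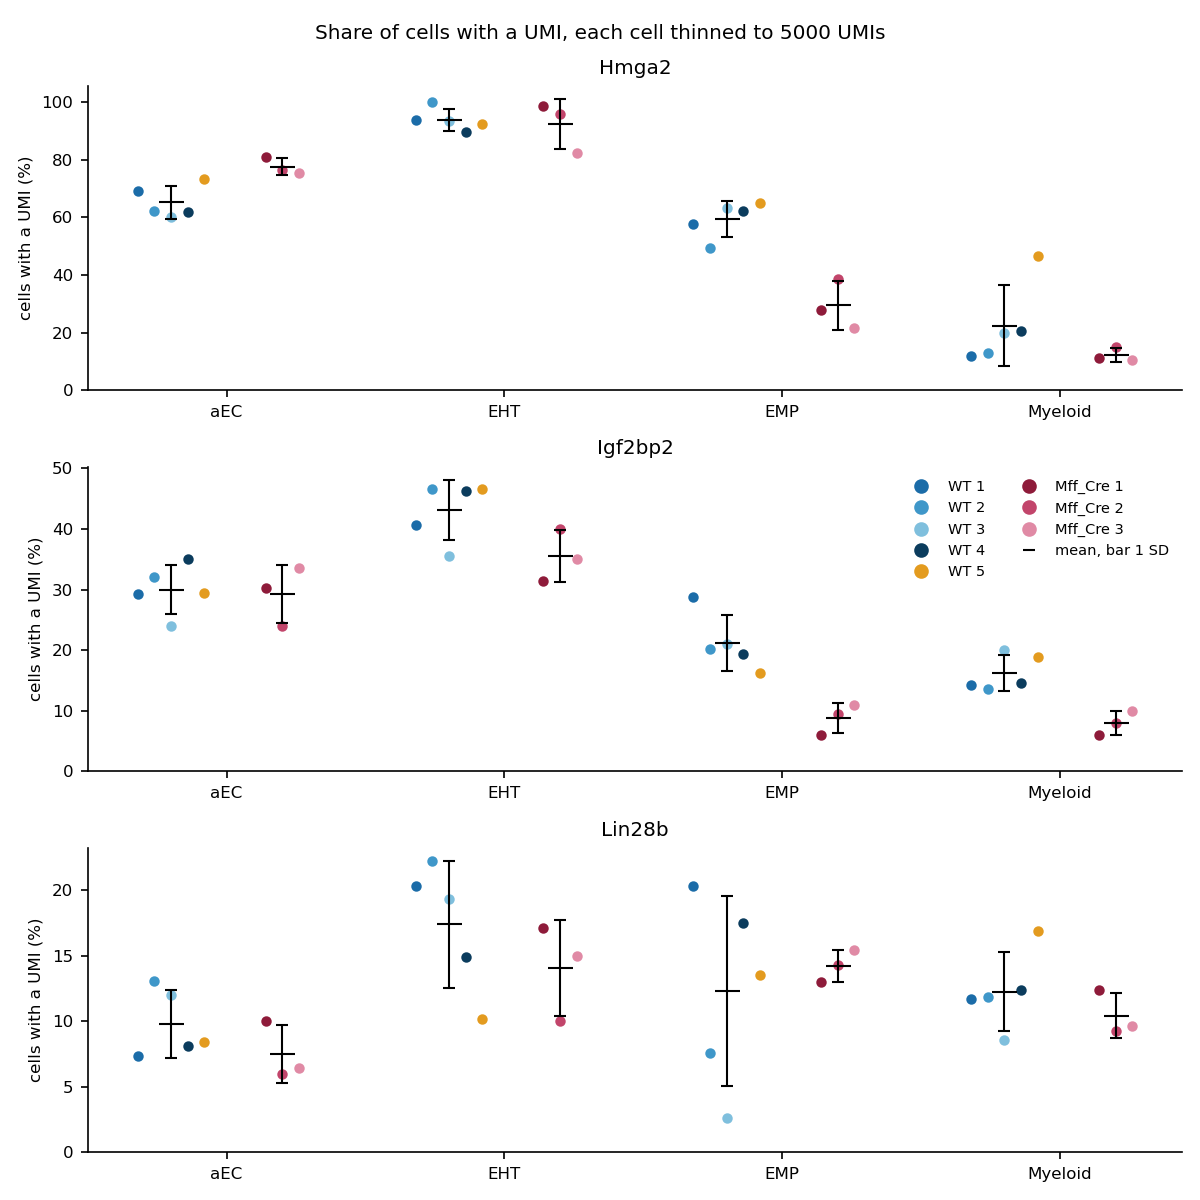
Share of cells with a UMI (y axis, percent, each cell thinned to 5000 UMIs) by cell type (x axis) for Hmga2, Igf2bp2 and Lin28b, WT at the left and Mff_Cre at the right of each pair, 1 point per library with the mean and a bar of 1 SD. In EMP the 3 Mff_Cre libraries lie at 21.8% to 38.8% for Hmga2, below all WT libraries, while the genotypes overlap for Lin28b.

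Within EHT, cells were split at each library's median count of the CD45.2 tag, a blood surface protein that appears as cells mature, in the 7 libraries with tags. Of 6 members tested 0 were called by edgeR or DESeq2, where 0.148% of 6087 genes were called by edgeR. At an unadjusted p under 0.05 there were 463 genes, 2 of them members, Igf2bp3 and Hmga1. The log2 difference, upper over lower part, was 0.37 for Igf2bp3 (SE 0.12, edgeR adjusted p = 0.413) and -0.35 for Hmga1 (SE 0.16, edgeR adjusted p = 0.650). Lin28b, Hmga2, Igf2bp1 and Igf2bp2 were at 0.09, 0.08, 0.14 and -0.09. The split also followed depth, with a higher median UMI count in the upper part in 6 of 7 libraries, and the median tag count was only 2 to 5 in WT 5 and Mff_Cre. Split by the tag's share of all tag counts, 193 of 6143 genes and 0 of 6 members were called by edgeR, and Igf2bp3 was at 0.04. Of the lists, 1 gene was called, the let-7 target Ccnd1, which rose by 0.93 (edgeR adjusted p = 0.0417).

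Genes with the most similar pattern over the 10 cell types were found among 9761 genes at 10 CPM or more in at least 1 cell type, by Pearson's r of the log2 mean CPM in WT with 1 added. These 10 points share libraries and depth, and r is given as a description. For Hmga2 they were Gid4 (r = 0.984), Scrn2 (0.978) and Nsrp1 (0.964), and for Igf2bp2 Fbxo21 (0.988), Cecr2 (0.986) and Zfp60 (0.977). For Lin28b they were Nelfe (0.966), Cinp (0.958) and Mrps25 (0.956), and for Hmga1 Mri1 (0.975) and Adsl (0.970). For Igf2bp1 they were Ctdspl2 (0.979), Ap1ar (0.979) and Tnpo1 (0.972), for Igf2bp3 Naip2 (0.939), Tfec (0.938) and Smg1 (0.925), and for Lin28a Aprt (0.840), Tulp3 (0.839) and Cep55 (0.825).

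Between members, the patterns did not all run together. Hmga2 and Igf2bp2 had r = 0.918 and Lin28b and Hmga1 r = 0.943, but Lin28b and Hmga2 had r = -0.10. Igf2bp1 stood at 0.892 with Igf2bp2 and at 0.737 with Hmga2. Within EMP, thinned cells held a UMI of both Lin28b and Hmga2 in 7.30% ± 4.09 of cells (SD, n = 8) against 6.16% for the product of their shares, above it in 8 of 8 libraries. In EHT these values were 15.5% and 15.1%, above in 6 of 8. Depth that remains uneven between cells was not removed beyond the thinning, and no test was made of these shares.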

How the data were processed

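RNA and antibody tags were counted in single CD31+ cells of the E10.5 AGM in 8 libraries made with a 3′ kit. Per the submitters' processing notes, Cell Ranger 3.0.2 and mm10 were used. The authors deposited raw UMI counts per gene and cell, whole numbers with no normalization, and a table of cell names, libraries and cell types; they had filtered cells on genes detected and mitochondrial share (fewest genes in a cell here, 2001), integrated the libraries in Seurat and named clusters by hand. The annotation release is not given in the sources used here.

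Groups came from the sample labels. Counts were summed per library and cell type where at least 10 cells were present, and CPM is UMIs per 1000000 of that sum. Megakaryocytes of WT 3 fell below 10 cells. Sums were tested with edgeR 4.0.16 (R 4.3.3; glmQLFit and glmQLFTest, TMM, filterByExpr), with Benjamini-Hochberg adjustment over all genes tested and a threshold of 0.1. Steps between cell types were fitted in the 5 WT libraries, blocked by library, and genotypes were compared within a cell type without a block. The genotype by cell type term was added after the data were seen. DESeq2 1.42.0 was an alternative, as were other size factors, filters, thinning, a depth class (border 20000 median UMIs) and leaving out each library. Shares were computed with Python 3.11.15 and scipy 1.17.1 after thinning cells to 5000 UMIs, which left out 0 to 46 shallower cells per library. Scrublet (scanpy 1.11.5) called 128 doublets (0.844%), which were kept except in 1 alternative.

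The fits were tested on simulated data in which 200 genes carried a log2 change of 1.5. Counts were drawn from a pooled profile at the real library sizes, with the same dispersion for all genes. No other difference between libraries, depths or groups was put in, so the percentages describe such data and not the real fits. For EHT against pre-HE 83.5% of them were recovered over 8467 genes (11.17% of calls false), for EMP against EHT 94.5% over 9252 genes (7.353% false), for the genotype in EMP 90.5% over 9172 genes (3.723% false) and in Myeloid cells 96.5% over 11479 genes (9.813% false), and for the genotype by cell type term 51.0% over 9961 genes (7.273% false). DESeq2 recovered 87.0% (5.946% false) for the genotype in EMP and 94.5% (11.68% false) in Myeloid cells. Same-numbered WT and Mff_Cre libraries had correlations of their deviations between -0.133 and 0.309, and the numbers were not taken as pairs. All 7 members were described where they passed the filter on low counts, list genes were named for their size of change among those called, and the members and lists were chosen with earlier results of these data known. Names and coordinates were taken from RefSeq for GRCm38.p6, where 7 of 7 members matched. WT 4 held no tag counts and was left out of the CD45.2 split. Of the genes most similar in pattern to Hmga1, 1 is not reported here. Intervals and floors cover counting error only.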

Additional observations from a re-analysis of the deposited data

Results flagged for a closer look

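In 70 groups of 4 or 5 WT libraries (1 gene in 1 cell type each), 4 had a library set apart from the others by most of the group's range, where chance gives about 1 in 20. In each of them it was WT 5, which was also the shallowest WT library. Hmga2 in WT 5 was at 417 CPM in vEC_2, 390 CPM in vEC_3 and 214 CPM in Myeloid cells, and Hmga1 in WT 5 was at 32.2 CPM in pre-HE cells. The part of depth, or of the prefix in its cell names, was not tested.

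The genotype change differed between EMP and EHT cells for 2 members by the genotype by cell type term. It was -1.42 on the log2 scale for Hmga2 (edgeR adjusted p = 0.00247) and -0.90 for Igf2bp2 (edgeR adjusted p = 0.0785). Hmga2 was lower in EMP of all 3 Mff_Cre libraries than in any WT library, and the genotypes overlapped in EHT.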

How the results depend on the processing

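Counts of members called moved by over 1.5 times as follows. From aEC to pre-HE the count was 3, and it was 1 with DESeq2, 1 with sums of at least 20 cells, 1 with thinned cells, and 1 to 5 without single libraries. Sums of at least 20 cells left only WT 1 and WT 4 at this step. With each cell thinned to 5000 UMIs, which also left fewer genes to test, counts went from 4 to 1 for pre-HE to EHT, from 5 to 2 for EHT to EMP, from 4 to 2 for EMP to Myeloid cells and from 5 to 3 for EMP to megakaryocytes. The last was also 3 with DESeq2, and 3 to 6 without single libraries. Between genotypes, the replicate block gave 3 members in aEC and 4 in vEC (0 in the main fit), and 2 in Myeloid cells (1 in the main fit). Of all genes it called 731 of 9141, 2351 of 12050 and 1333 of 11501 there. The fit with the block held only libraries numbered 1 to 3, so WT 4 and WT 5 did not enter. Without WT 5 and with no block, 1, 4 and 2 members were called in aEC, vEC and Myeloid cells. As the numbers do not pair the libraries, the block is given for completeness, and it lost no call. In EMP 0 members were called with a term for depth class (7 of 9172 genes), and 0 against WT 5 alone (50 of 9381 genes), where 435 genes were called with neither. In Myeloid cells 2 were called against WT 5 alone (253 of 11774 genes). Counts against WT 5 alone assume that this 1 WT library varies like Mff_Cre, and are no test of genotype. Without single libraries the counts were 0 to 1 in aEC, 0 to 4 in vEC, 1 to 3 in EMP and 0 to 2 in Myeloid cells. The genotype by cell type term of EMP against EHT called 0 with the depth class, 1 against WT 5 alone and 1 to 2 without single libraries. That of Myeloid cells against EHT called 1 with the depth class and 2 against WT 5 alone. Without thinning, 13 of 35 shares passed, against 0 at equal depth. The genotype change of Hmga1, above 0 in vEC, EMP and Myeloid cells, turned to -0.070, -0.14 and -0.16 with the depth class and to -0.067, -0.14 and -0.13 against WT 5 alone. The cause of these changes was not tested, except that fewer genes or samples entered where said. Of 586 values under alternatives, 500 stayed the same. For fold changes this means the same direction and side of the threshold, and for levels and shares a shift under 1 SD of the WT libraries.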
